A study of Homo sapiens with 12 samples.

Results

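TCam-2 and 2102 EP, a pair of human testicular germ cell tumour lines, were compared in the solvent dimethyl sulfoxide (DMSO) with no inhibitor. The comparison rests on 6 of the 12 libraries of the series: 3 of TCam-2 with DMSO and 3 of 2102 EP with DMSO, chosen by their sample titles alone and by no measured value. 2102 EP is labelled as embryonal carcinoma and TCam-2 as seminoma, both are given as wild type, and all cells were kept for 24 hours in the solvent. 2102 EP grew in DMEM and TCam-2 in RPMI, each with fetal bovine serum, antibiotics and glutamine, so that the line and its medium cannot be told apart. Each group is a single line, and the labels call its 3 libraries biological replicates without saying how the cultures were kept separate. The p-values therefore set the line difference only against the spread between libraries of the same group, estimated over all 12 libraries. The other 6 libraries, the same lines with 15 µM I-BRD9, an inhibitor of the bromodomain protein BRD9, entered the model that estimates the spread and are otherwise used only at the end.

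Germ cell tumours of the testis arise from germ cells that failed to mature. Embryonal carcinoma cells keep the programme of pluripotent stem cells, in which the transcription factors POU5F1 (OCT4), NANOG and SOX2 act together and NODAL signalling helps to sustain them. Seminoma cells resemble primordial germ cells, the embryonic founders of sperm and egg, in which SOX17, TFAP2C and PRDM1 specify the fate and SOX2 is silent while POU5F1 and NANOG stay on. SOX2 against SOX17 is for this reason the usual pair of markers that parts these tumour types.

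The unit used throughout is CPM, the estimated counts of a gene scaled by library size and a composition factor. Shared reads, where mentioned, means that the estimated count was not whole in at least 1 DMSO library, that is, reads were divided among genes; the other genes are not identified. Not every gene with shared reads is marked as such. The library kit counts the 3′ ends of polyadenylated transcripts. Where 3 values are given for a line they are its 3 libraries, replicates 1 to 3, and a value with ± is the mean and SD of those 3. A log2 fold change is always TCam-2 over 2102 EP, with its standard error from the model, and a gene was called different when its edgeR adjusted p was under 0.05. The 6 libraries held between 7924567 and 9837567 counts and between 20858 and 21501 genes with a count, and a gene with 3 counts in a library had 0.318 to 0.384 CPM. Transcripts of the mitochondrial genome took 8.21% to 10.1% of the counts in 2102 EP and 7.02% to 7.4% in TCam-2; their part in the results was not tested. Of 18 stromal, blood and endothelial markers, 14 were too low to test. None of the 4 tested was called by edgeR, by DESeq2 or by limma voom, nor was any under 0.05 before adjustment in edgeR. Without the low-count filter 2 of the list were called higher and 1 lower, and without replicate 3 of 2102 EP 1 was called higher. In all 6 libraries 4 were at 0 (among them CD3E, LYZ and HBB). The summed level of the list ran from 18.6 to 23.6 CPM in 2102 EP and from 22.5 to 26.3 CPM in TCam-2. Of 13 testis somatic markers 3 were tested. SOX9, a Sertoli cell and developmental factor, was higher in TCam-2, CYP11A1, a steroid-making enzyme, was lower but missed the threshold without replicate 1 (edgeR adjusted p = 0.0571) or 3 (0.0503) of TCam-2, AMH was not called, and FSHR, CYP17A1 and HSD3B2 were at 0 in all 6 libraries.

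The lines differed over most of what was measured. Of 15614 genes tested, 9767 were called (62.6%), 4953 of them higher in TCam-2 (31.7%) and 4814 lower (30.8%). At least 2-fold differences made up 2724 of the higher genes (17.4% of those tested) and 2497 of the lower ones (16.0%). Counting a gene with 3 counts or fewer in a line at the bound that 3 counts allow, 1245 genes were at least 4-fold higher and 1174 at least 4-fold lower, and 355 and 353 passed 16-fold. The median log2 fold change of all tested genes was 0.02, so the shifts of gene groups given below are close to shifts against the bulk of genes. The 3 libraries of TCam-2 lay wholly above or wholly below those of 2102 EP for 10548 genes (67.6%). With so large a background, a share of called members near 62.6% in a gene group says nothing about that group, and the direction and size of the differences carry the description. The first principal component of the 6 libraries held 84.3% of their variance and parted the lines.

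**Figure D1:**
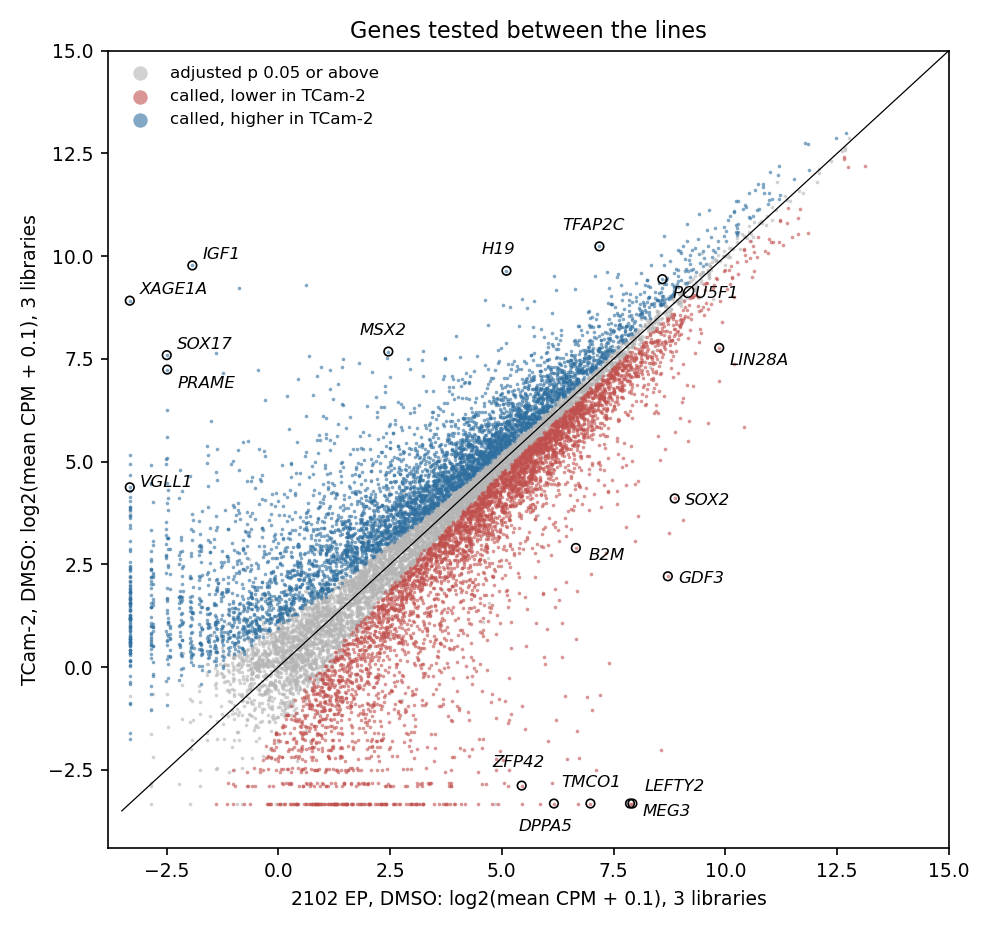
Mean level of each of the 15614 tested genes in 2102 EP (horizontal) and TCam-2 (vertical) with DMSO, each axis as log2 of the mean CPM of 3 libraries plus 0.1. Blue points were called higher in TCam-2, red points lower and grey points not called, the line marks equal levels, and circled genes are named in the text; the points at the left and lower edges are genes without counts in 1 of the lines.

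The markers of the tumour types mostly followed the labels. SOX2, the pluripotency factor that embryonal carcinoma keeps, was at 454, 457 and 492 CPM in the 2102 EP libraries and at 15.9, 15.6 and 19.7 CPM in TCam-2. The lines did not overlap, and SOX2 was lower in TCam-2 (log2 fold change −4.78 ± 0.13, edgeR adjusted p = 4.52e-18), though not at 0 there. SOX17, its germ cell counterpart, was at 0.114, 0.118 and 0 CPM in 2102 EP, which is 2 counts over 3 libraries, and at 198, 195 and 185 CPM in TCam-2. That is a ratio of 2420 (95% counting interval 669 to 20000). TFAP2C, an AP-2 factor of primordial germ cells, was at 113, 193 and 129.6 CPM in 2102 EP and 983, 1472 and 1169 CPM in TCam-2 (log2 fold change 3.05 ± 0.22, edgeR adjusted p = 8.77e-07), so that it was expressed in both lines with the higher level in TCam-2. PRDM1 (BLIMP1), a repressor that specifies germ cells, was at 5.49, 3.54 and 2.05 CPM in 2102 EP and 32.7, 33.3 and 32.4 CPM in TCam-2 (log2 fold change 3.13 ± 0.26, edgeR adjusted p = 1.97e-09), with shared reads. KIT, the receptor for stem cell factor, was at 0.572, 1.65 and 1.66 CPM and 26.1, 26.7 and 26.7 CPM in the same order (log2 fold change 4.36 ± 0.24, edgeR adjusted p = 3.15e-13). PRAME, a tumour antigen of seminoma, had 2 counts over the 2102 EP libraries against 139, 148 and 166 CPM in TCam-2, a ratio of 1890 (95% counting interval 522 to 15600).

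**Figure D2:**
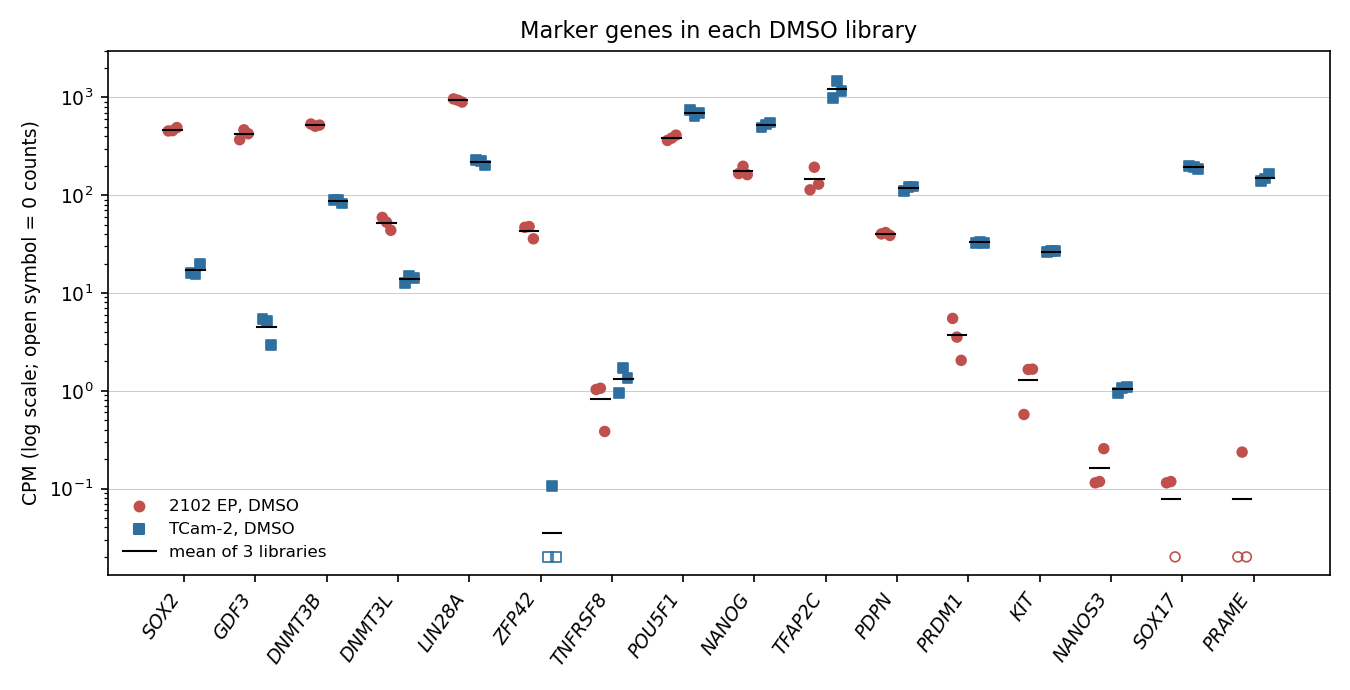
CPM on a log scale of 16 marker genes in each of the 6 DMSO libraries: circles 2102 EP, squares TCam-2, bars the mean of 3 libraries, open symbols libraries with 0 counts. SOX2, GDF3, DNMT3B and LIN28A sit higher in 2102 EP, SOX17, PRAME, KIT and TFAP2C in TCam-2, while the 2 lines overlap for TNFRSF8, which is near 1 CPM in both.

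Some markers did not follow them. TNFRSF8 (CD30), the surface antigen by which pathologists recognise embryonal carcinoma, was at 1.03, 1.06 and 0.384 CPM in 2102 EP and 0.944, 1.7 and 1.35 CPM in TCam-2. The libraries overlapped and the gene was not called (log2 fold change 0.67 ± 0.67, edgeR adjusted p = 0.396). NANOS3, a germ cell RNA-binding protein gene, was too low to be tested, at 0.114, 0.118 and 0.256 CPM in 2102 EP and 0.944, 1.06 and 1.1 CPM in TCam-2. ALPL, an alkaline phosphatase often used as a germ cell marker, was lower in TCam-2 (52.3 ± 4.01 CPM in 2102 EP and 28.5 ± 2.13 CPM in TCam-2; log2 fold change −0.88 ± 0.14, edgeR adjusted p = 7.35e-06). SOX15, another seminoma marker of the check, was not called (151 ± 6.52 CPM in 2102 EP and 142 ± 6.63 CPM in TCam-2; log2 fold change −0.09). KRT19, listed as an embryonal carcinoma keratin, was higher in TCam-2 (151 ± 4.22 CPM in 2102 EP and 203 ± 5.63 CPM in TCam-2; log2 fold change 0.42 ± 0.07, edgeR adjusted p = 3.48e-05). Of the 10 embryonal carcinoma markers of this check, 8 were lower in TCam-2, against 30.8% of all tested genes. Of the 10 seminoma markers 7 were higher (SOX17, PRDM1, TFAP2C, KIT, PDPN, PRAME and CXCR4), against 31.7% of all tested genes. The markers were chosen with earlier results of these data known, so the tally is a description and no test of the labels. In the wider embryonal carcinoma list of 19 tested genes, 14 were lower, 4 higher and 1 not called, with a median of −1.89. Its share called was 94.7%, against 62.6% of all genes. Besides KRT19, the higher ones were CDH1, KRT18 and KRT8 (log2 fold changes 1.17, 1.03 and 0.96).

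The core pluripotency list fell mainly on the side of 2102 EP. All of its 26 members were tested. Of these, 19 were lower in TCam-2, 4 higher and 3 not called (88.5% called, against 62.6% of all genes). Their median log2 fold change was −1.88. The higher ones included POU5F1 and NANOG, whereas SOX2 was lower as given above. POU5F1 was at 363, 384 and 412 CPM in 2102 EP and 749, 643 and 693 CPM in TCam-2 (log2 fold change 0.85 ± 0.08, edgeR adjusted p = 8.26e-09); it had shared reads. NANOG was at 166, 198 and 162 CPM and 494, 527 and 553 CPM (log2 fold change 1.58 ± 0.11, edgeR adjusted p = 4.67e-11), also with shared reads. L1TD1, an RNA-binding protein of stem cells, was higher by a smaller step (1727 ± 46.7 CPM in 2102 EP and 2284 ± 53.1 CPM in TCam-2; log2 fold change 0.40). The fourth, TDRD12, is a piRNA pathway gene (2.41 ± 0.403 CPM in 2102 EP and 118 ± 4.27 CPM in TCam-2; log2 fold change 5.62). POU5F1 and NANOG did not overlap between the lines, like 67.6% of all genes tested, with every TCam-2 library above those of 2102 EP.

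Among the lower members, LIN28A, an RNA-binding protein that blocks let-7 maturation, was at 965, 936 and 896 CPM in 2102 EP and 229.7, 223 and 201 CPM in TCam-2 (log2 fold change −2.10 ± 0.08, edgeR adjusted p = 5.04e-16). Its paralog LIN28B differed less (234 ± 10.2 CPM in 2102 EP and 169 ± 5.43 CPM in TCam-2; log2 fold change −0.47). PRDM14, a factor that guards naive pluripotency and germ cell fate, was at 78.2, 91.8 and 119.8 CPM and 13.6, 14.2 and 14.4 CPM (log2 fold change −2.78 ± 0.15, edgeR adjusted p = 1.17e-12). UTF1, a chromatin protein of undifferentiated cells, and ZSCAN10, a zinc finger partner of POU5F1 and SOX2, were lower by 2.20 and 2.31 on the log2 scale. ZIC2 and OTX2, transcription factors of the primed state, were lower as well (30.6 against 0.481 CPM, log2 fold change −6.01; 25.2 against 7.64 CPM, −1.72, each with 2102 EP first). DPPA3 was at 158, 142 and 91.8 CPM in 2102 EP and 0.826, 0.318 and 0 CPM in TCam-2 (log2 fold change −8.36 ± 0.58, edgeR adjusted p = 1.34e-06), with shared reads. DPPA5 was at 77.8, 81.2 and 56.2 CPM in 2102 EP and without a count in TCam-2, at least 627-fold lower when the floor is taken as 3 counts in the summed libraries of the line. FOXD3 (1.33 and 1.36 CPM), DPPA2 (13 and 10.8 CPM) and TERT (7.3 and 4.76 CPM) were the 3 that were not called. TERT, the catalytic part of telomerase, passed as lower on the 6 DMSO libraries alone (edgeR adjusted p = 0.0417), without replicate 1 of 2102 EP (0.0304) or replicate 3 of TCam-2 (0.0204), and by limma voom (adjusted p = 0.0379).

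ZFP42 (REX1), a zinc finger factor that marks naive pluripotent cells, was at 46.9, 47.7 and 35.8 CPM in 2102 EP and had 1 count over the 3 TCam-2 libraries, which puts 2102 EP 1140 times as high (95% counting interval 204 to 45000). Its promoter is shown here as that of a pluripotency gene near 0 in TCam-2, beside PRAME, which had the opposite pattern, and TMCO1, a calcium channel gene of the endoplasmic reticulum that most cells express and that had no count in TCam-2. The 250 bases before the start that RefSeq gives each gene on GRCh38.p14 are written 5′ to 3′ on the strand of the gene with CG dinucleotides, the sites of DNA methylation, in capitals. GENCODE 29 lets PRAME and TMCO1 begin further upstream, so that their stretches lie inside the GENCODE gene. The region of PRAME is chr22:22554183-22554432 on the minus strand, that of ZFP42 chr4:187995521-187995770 on the plus strand and that of TMCO1 chr1:165768869-165769118 on the minus strand.
PRAME: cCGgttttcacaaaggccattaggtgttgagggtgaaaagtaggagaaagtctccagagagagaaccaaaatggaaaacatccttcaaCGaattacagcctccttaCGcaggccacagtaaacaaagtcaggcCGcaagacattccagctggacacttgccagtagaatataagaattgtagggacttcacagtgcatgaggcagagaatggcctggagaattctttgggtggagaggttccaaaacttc
ZFP42: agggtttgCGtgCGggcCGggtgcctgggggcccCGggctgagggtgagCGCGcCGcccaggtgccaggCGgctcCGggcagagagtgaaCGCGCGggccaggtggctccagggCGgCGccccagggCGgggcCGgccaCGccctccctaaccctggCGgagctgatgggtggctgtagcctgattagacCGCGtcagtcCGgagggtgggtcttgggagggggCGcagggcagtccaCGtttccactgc
TMCO1: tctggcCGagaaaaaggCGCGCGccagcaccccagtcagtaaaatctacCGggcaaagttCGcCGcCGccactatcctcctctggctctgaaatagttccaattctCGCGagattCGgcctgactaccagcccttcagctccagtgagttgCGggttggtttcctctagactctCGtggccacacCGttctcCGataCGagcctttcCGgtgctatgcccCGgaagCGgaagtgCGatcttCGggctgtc
The PRAME stretch holds 4 CG, more than 30.8% of the 27305 RefSeq promoter stretches of the same length, ZFP42 holds 23 (more than 74.9%) and TMCO1 holds 21 (more than 70.6%). DNA methylation was not measured in these samples, and the count of CG is a property of the reference sequence alone.

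NODAL, its co-receptor and its LEFTY inhibitors were lower in TCam-2 by wide margins. NODAL is a TGF-beta family ligand that acts through the co-receptor TDGF1 (CRIPTO) and is held in check by its own targets LEFTY1 and LEFTY2. NODAL was at 169, 183 and 153 CPM in 2102 EP and 1.77, 0.425 and 0.735 CPM in TCam-2 (log2 fold change −7.43 ± 0.24, edgeR adjusted p = 1.4e-14). LEFTY2 was at 225, 269 and 234 CPM in 2102 EP and had no count in TCam-2, at least 2110-fold lower, and LEFTY1 was at 68.6, 66.1 and 60.7 CPM and 0.118, 0.318 and 0.122 CPM (log2 fold change −8.31 ± 0.36, edgeR adjusted p = 1.1e-12). The LEFTY genes are near-identical neighbours and both had shared reads. GDF3, a related ligand, was at 369, 466 and 425 CPM in 2102 EP and 5.43, 5.2 and 2.94 CPM in TCam-2 (log2 fold change −6.52 ± 0.25, edgeR adjusted p = 6.92e-10). TDGF1, with shared reads, was lower too (177 ± 18.8 CPM in 2102 EP and 23.5 ± 4.58 CPM in TCam-2; log2 fold change −2.92). So was SMAD7, a feedback inhibitor (28 ± 2.68 CPM in 2102 EP and 9.03 ± 1.2 CPM in TCam-2; log2 fold change −1.63). The lines did not overlap in any of these 6 genes, as was so for 67.6% of all genes tested. ACVR1B, a receptor of NODAL and activins, was higher in TCam-2 (11.6 and 30.1 CPM, log2 fold change 1.37).

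ID1, ID2 and ID4, transcriptional inhibitors that BMP signals induce, were higher in TCam-2. ID2 was at 35.7, 39.7 and 33.9 CPM in 2102 EP and 452, 427 and 418 CPM in TCam-2 (log2 fold change 3.57 ± 0.09, edgeR adjusted p = 2.9e-19). ID1 was at 149, 131 and 126 CPM and 702, 734 and 761 CPM (log2 fold change 2.44 ± 0.13, edgeR adjusted p = 3.73e-11), and ID3 was not called (93.2 ± 15.8 CPM in 2102 EP and 158 ± 17.1 CPM in TCam-2; edgeR adjusted p = 0.0797), though it passed as higher by DESeq2 (adjusted p = 0.0461) and on the 6 DMSO libraries alone (edgeR adjusted p = 3.25e-05). The BMP receptor genes BMPR1A, BMPR1B, BMPR2 and ACVR1 were higher, with log2 fold changes between 1.28 and 3.62, while the ligand BMP4 was level (93.7 and 96.7 CPM, not called) and BMP7 was higher (17.5 and 54.3 CPM, log2 fold change 1.63). FST, a secreted binder of activins, was at 4.54 ± 0.389 CPM in 2102 EP and 74.4 ± 4.15 CPM in TCam-2 (log2 fold change 4.03 ± 0.14, edgeR adjusted p = 1.01e-16). Over the whole list of 35 tested NODAL and BMP genes (5 more were too low), 14 were higher, 11 lower and 10 not called. That is 71.4% called, against 62.6% of all genes, with a median of 0.07.

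Of 25 tested seminoma and primordial germ cell genes (2 more were too low), 15 were higher in TCam-2, 8 lower and 2 not called. The share called was 92%, against 62.6% of all genes, and the median log2 fold change was 1.20. CXCR4, a chemokine receptor that guides migrating germ cells, was at 0.686, 1.3 and 1.79 CPM in 2102 EP and 131, 126 and 131 CPM in TCam-2 (log2 fold change 6.69 ± 0.19, edgeR adjusted p = 2.51e-18). TFAP2A, a relative of TFAP2C, was at 1.12 ± 0.275 CPM in 2102 EP and 30.9 ± 2.17 CPM in TCam-2 (log2 fold change 4.77 ± 0.21, edgeR adjusted p = 9.39e-15). PDPN, the antigen that marks seminoma in pathology, was at 40.1 ± 1.38 CPM in 2102 EP and 118 ± 7.04 CPM in TCam-2 (log2 fold change 1.56 ± 0.09, edgeR adjusted p = 6.66e-13). TFCP2L1, a naive pluripotency factor that human germ cells share, was also higher (36.1 and 91.7 CPM, log2 fold change 1.35). Of the 8 lower members, DND1, an RNA-binding protein without which germ cells die, was at 21.5, 21.3 and 17.4 CPM in 2102 EP and 0.118, 0.212 and 0.122 CPM in TCam-2 (log2 fold change −6.91 ± 0.46, edgeR adjusted p = 9.01e-12). LHX8, a homeobox factor of germ cells, had 1 count over the TCam-2 libraries and 3.41 ± 0.678 CPM in 2102 EP. THY1 and ALPG, surface markers, were lower by 3.36 and 4.0 on the log2 scale, and PRDM14, SPRY4 and TCL1B completed the group with ALPL. TCL1B was near the threshold (log2 fold change −0.41 ± 0.17, edgeR adjusted p = 0.0379) and missed it without any 1 of 5 libraries, with 0.166 as the highest adjusted p, without replicate 3 of 2102 EP, and in both fits with a block (adjusted p = 0.054 by replicate number and 0.0532 by library code).

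Genes of later germ cells were sparse in both lines. Of 29 listed, 16 were too low to test, among them the germ cell helicase DDX4 (VASA) and DAZL. Of the 13 tested, 6 were higher and 6 lower in TCam-2 (92.3% called, against 62.6% of all genes). SYCP2, a protein of the meiotic chromosome axis, was among the higher ones (0.569 ± 0.395 CPM in 2102 EP and 13.3 ± 1.88 CPM in TCam-2; log2 fold change 4.54 ± 0.35, edgeR adjusted p = 1.32e-10). DMRT1, a sex-determination factor of the germ line, had 2 counts over the 2102 EP libraries and 5.67, 2.55 and 2.94 CPM in TCam-2. GTSF1, a piRNA factor, went the other way, with 26.2, 30.5 and 30.7 CPM in 2102 EP and 2 counts in TCam-2. TEX15 and MEIOB, which act in meiotic recombination and piRNA silencing, were also lower (8.2 and 0.531 CPM; 2.61 and 0.348 CPM).

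Cancer testis antigens, germ line genes that tumours switch on, were found on both sides. Of 36 listed, 15 were at 0 in all 6 libraries and 10 were tested. Of the 10 tested, 4 were higher and 4 lower (80% called, against 62.6% of all genes). XAGE1A was without a count in 2102 EP and at 618, 479.6 and 352 CPM in TCam-2, at least 4050-fold higher, but it has a near-identical copy, XAGE1B (0.445 and 594 CPM), and both had shared reads. XAGE2 had 2 counts in 2102 EP and 76.7, 59 and 92.2 CPM in TCam-2, and XAGE3 also had 2, against 11.5 ± 1.56 CPM; XAGE3 was listed with the trophoblast genes. MAGEB2 was the reverse, at 35.5, 36.9 and 35.2 CPM in 2102 EP and 2 counts in TCam-2. So were NXF2 (9.17 CPM and 1 count), SSX4 (4.41 CPM and no count) and SPANXB1 (2.05 CPM and no count). SSX4 and SPANXB1 had shared reads. The MAGEA genes of the list other than MAGEA10 were too low to test in either line.

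Some genes were all but missing from a line, with 3 counts or fewer in its 3 libraries summed and a mean of 10 CPM or more in the other. They numbered 40 with TCam-2 high and 51 with 2102 EP high. Of these, 30 and 34 code for protein, and 20 and 22 had no count at all in the silent line. These are a description of level and carry no test. On the side of TCam-2 they included VGLL1, a TEAD cofactor of trophoblast (19, 19.2 and 23.8 CPM, at least 172-fold higher) and EBF2, a factor of brown fat and mesenchyme (26.4, 24.2 and 25.3 CPM, at least 211-fold). The ligand WNT2 (19.9, 21.8 and 16.3 CPM, at least 162-fold) was another, and so was RBMXL2, a retrogene expressed in spermatocytes (36.9, 34.3 and 35.4 CPM, at least 296-fold). PRLR, the prolactin receptor, had 2 counts in 2102 EP and 35.9, 35.9 and 30.1 CPM in TCam-2, and GFRA1, the GDNF co-receptor of spermatogonial stem cells, had 1 count and 21.7, 24.4 and 19.6 CPM. Several were genes that most cell types express. CAT, the peroxisomal enzyme catalase that breaks down hydrogen peroxide, was without a count in 2102 EP and at 12.9, 13.7 and 15.3 CPM in TCam-2 (at least 116-fold). RWDD2B (12.9, 12.3 and 11.6 CPM) and CCDC125 (17, 15.8 and 15.9 CPM) were likewise without a count in 2102 EP, and LCLAT1, a cardiolipin acyltransferase gene, had 3 counts there and 21.2, 20.3 and 16.7 CPM in TCam-2.

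On the side of 2102 EP the same was seen for TMCO1 (122, 131 and 126 CPM, at least 1100-fold), MYSM1, a histone H2A deubiquitinase (61.4, 52.3 and 59.1 CPM, at least 500-fold), and ZNF512 (20.4, 20.5 and 25.6 CPM, at least 191-fold), each with no count in the 3 TCam-2 libraries. LINC-ROR, a non-coding RNA of pluripotent cells, was at 41.4, 49.6 and 40.5 CPM and without a count in TCam-2 (at least 382-fold), and HPAT5, another such RNA, at 36.7, 25.7 and 28 CPM (at least 263-fold). FGF19, a growth factor of embryonal carcinoma, had 1 count in TCam-2 and 12.2, 14 and 15.6 CPM in 2102 EP. BRDT, the testis member of the BET bromodomain family, also had 1 count in TCam-2 and was at 21.4, 20.6 and 27.9 CPM in 2102 EP. CGAS, the sensor of cytosolic DNA, had 1 count against 10.2, 14.1 and 7.54 CPM. In the I-BRD9 libraries the genes named in these 2 paragraphs stayed under 1 CPM on average in the line that lacked them, with at most 0.202 CPM, for RWDD2B in 2102 EP. Some also averaged little with I-BRD9 in the line that had them, a treatment difference that was not tested here. GFRA1 averaged 0.331 CPM in TCam-2 with I-BRD9, near its 0.194 CPM in 2102 EP, and EBF2 and WNT2 averaged 2.33 and 3.89 CPM. In 2102 EP, FGF19 averaged 0.776 CPM, LINC-ROR 1.99 CPM, HPAT5 2.52 CPM and CGAS 3.48 CPM.

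Developmental transcription factors were divided between the lines. Of 18 tested SOX and GATA genes 7 were higher in TCam-2 and 8 lower (83.3% called, against 62.6% of all genes). Besides SOX17, the higher ones were GATA2, GATA3, GATA4 and GATA6, factors of trophoblast and endoderm, with SOX9 and SOX12. GATA3 was at 13.5, 15.6 and 14.7 CPM in 2102 EP and 74.2, 67.5 and 74 CPM in TCam-2 (log2 fold change 2.30 ± 0.10, edgeR adjusted p = 7.25e-15), and GATA4 and GATA6 stayed under 10 CPM (6.99 and 3.89 CPM in TCam-2). Besides SOX2, the lower ones included its close relatives SOX3 (6.65 and 1.39 CPM) and SOX21 (6.94 and 0.273 CPM) and the neural factor SOX11 (18.8 and 5.21 CPM).

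Endoderm, yolk sac and trophoblast genes leaned towards TCam-2. Of 20 tested (15 more were too low), 14 were higher, 2 lower and 4 not called. The share called was 80%, against 62.6% of all genes, and the median log2 fold change was 2.69. HAND1, a factor of trophoblast giant cells and mesoderm, was at 4.8, 6.13 and 4.99 CPM in 2102 EP and 194, 196 and 160.4 CPM in TCam-2 (log2 fold change 5.11 ± 0.13, edgeR adjusted p = 2.62e-19). DLX3, a placental homeobox factor, was at 3.52 ± 0.0759 CPM in 2102 EP and 30.6 ± 5.03 CPM in TCam-2 (log2 fold change 3.12 ± 0.18, edgeR adjusted p = 6.28e-13). KRT7, a trophoblast keratin, was at 5.17 ± 0.584 CPM in 2102 EP and 104 ± 3.74 CPM in TCam-2 (log2 fold change 4.33 ± 0.13, edgeR adjusted p = 6.76e-18). TP63, the p63 factor, had no count in 2102 EP and 3.04 ± 0.274 CPM in TCam-2. AFP, TTR and CGB5, products of mature yolk sac, liver and placenta, and the trophoblast factor ELF5 were too low to test in both lines. FOXA3 (14.4 CPM in 2102 EP and 1 count in TCam-2) and CER1 (2.65 CPM and no count) were the lower ones.

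Homeobox genes of body patterning gave 19 higher, 12 lower and 6 not called of 37 tested (23 more were too low). The share called was 83.8%, against 62.6% of all genes, and the median was 0.84. MSX2, a target of BMP signals, was at 6.06, 5.19 and 4.99 CPM in 2102 EP and 208, 203 and 203 CPM in TCam-2 (log2 fold change 5.23 ± 0.13, edgeR adjusted p = 3.74e-19). PITX1, a hindlimb factor, was at 1.72 ± 0.263 CPM in 2102 EP and 136 ± 9.75 CPM in TCam-2 (log2 fold change 6.30 ± 0.14, edgeR adjusted p = 1.47e-19), with shared reads. Within the HOX C cluster HOXC4, HOXC6, HOXC8, HOXC9, HOXC10 and HOXC13 were called higher, with levels in TCam-2 between 2.56 and 14.8 CPM, and HOXC5 was at 0 in all libraries. HOXB1, the first gene of the B cluster, was on the other side, at 14, 12 and 15.1 CPM in 2102 EP and without a count in TCam-2 (at least 119-fold lower). HOXB2 was lower too (3.6 and 0.385 CPM), whereas HOXB4 and HOXB7 were higher (2.11 and 5.35 CPM in TCam-2).

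Mesoderm and mesenchymal genes were split, with 10 higher and 8 lower of 20 tested (90% called, against 62.6% of all genes). FN1 (fibronectin), CDH2 (N-cadherin), TAGLN, TWIST1 and TBX3 were higher. CDH2 was at 28.3, 28.3 and 33.2 CPM in 2102 EP and 213, 212 and 202 CPM in TCam-2 (log2 fold change 2.80 ± 0.10, edgeR adjusted p = 8.96e-17). FN1 was at 5.06 and 80.2 CPM (log2 fold change 3.98 ± 0.15, edgeR adjusted p = 2.96e-16). VIM (vimentin) and SNAI1 (Snail), other hallmarks of mesenchyme, were lower (148 and 93.9 CPM, log2 fold change −0.65; 2.38 and 0.512 CPM, −2.21). Neural genes gave 7 higher and 10 lower of 21 tested (81% called, against 62.6% of all genes), with a median of −0.93. DPYSL3, a regulator of growing axons, was at 403, 394 and 413 CPM in 2102 EP and 37.2, 42.5 and 39.7 CPM in TCam-2 (log2 fold change −3.34 ± 0.09, edgeR adjusted p = 1.11e-18), and NES (nestin) was also lower (276 and 145 CPM). The ZIC genes, neural plate factors, went apart within the family. ZIC1 had 1 count in 2102 EP and 22.5, 22 and 22.3 CPM in TCam-2, ZIC5 was at 9.84, 9.43 and 8.69 CPM in 2102 EP with no count in TCam-2, and ZIC2 was lower in TCam-2 as given above. ZIC1 and ZIC5 had shared reads in 2 libraries and 1 library.

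**Figure D3:**
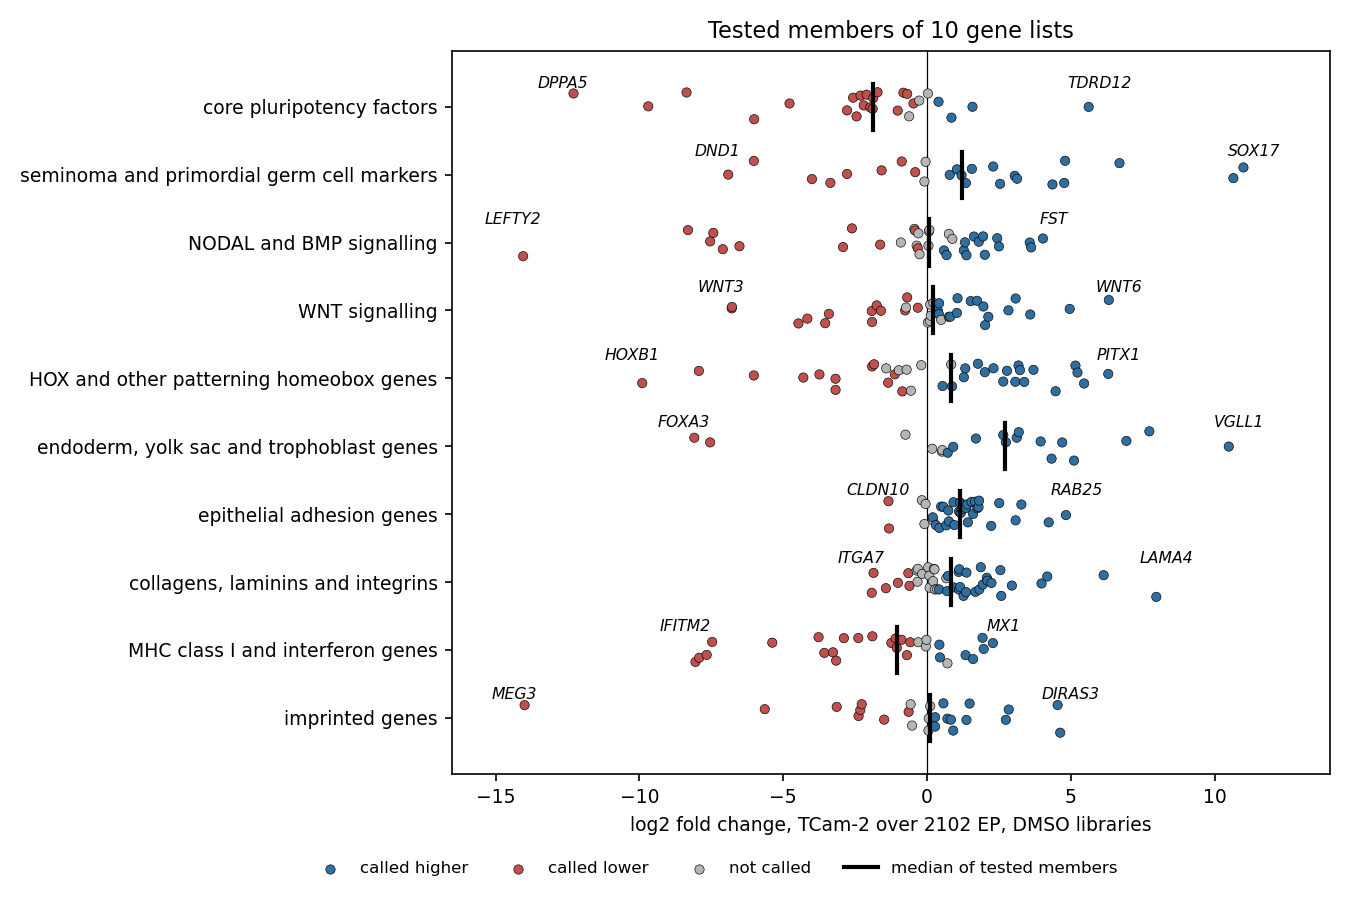
Log2 fold change (TCam-2 over 2102 EP) of each tested member of 10 gene lists, blue where called higher in TCam-2, red where called lower and grey where not called, with a black bar at the list's median and the names of the extreme members. Epithelial adhesion genes lie almost wholly to the right (median 1.16) and core pluripotency factors to the left (median −1.88), while NODAL and BMP genes spread to both sides.

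Epithelial adhesion genes were mostly higher in TCam-2. Of 36 tested (4 more were too low), 30 were higher, against 31.7% of all genes, 2 were lower and 4 were not called, with a median log2 fold change of 1.16. CDH1, E-cadherin, was at 65.9, 66.4 and 49.9 CPM in 2102 EP and 131, 116 and 162 CPM in TCam-2 (log2 fold change 1.17 ± 0.24, edgeR adjusted p = 0.00228). JUP, plakoglobin of desmosomes and adherens junctions, was at 35.2, 30.9 and 25.3 CPM and 165, 169.6 and 188 CPM (log2 fold change 2.51 ± 0.13, edgeR adjusted p = 1.1e-12). The desmosomal PKP3 was at 26.6 ± 3.65 CPM in 2102 EP and 125 ± 3.56 CPM in TCam-2 (log2 fold change 2.23 ± 0.10, edgeR adjusted p = 1.21e-14). Transcription factors that maintain epithelia were higher too: GRHL2 (1.66 ± 0.745 CPM in 2102 EP and 31.7 ± 2.76 CPM in TCam-2; log2 fold change 4.23 ± 0.24, edgeR adjusted p = 2.37e-12), GRHL1 (log2 fold change 3.08), OVOL2 (1.36) and the splicing factor ESRP2 (1.40). Claudins, the sealing proteins of tight junctions, were not uniform. CLDN4 was higher (4.94 and 48.2 CPM), CLDN7 and CLDN10 were the 2 lower members (144 and 57.5 CPM for CLDN7), and CLDN6 was not called (374 and 331 CPM) except as lower on the 6 DMSO libraries alone (edgeR adjusted p = 0.032).

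Keratins of simple epithelia, KRT8, KRT18 and KRT19, were on in both lines and higher in TCam-2. KRT18 was at 625, 734 and 655 CPM in 2102 EP and 1268, 1443 and 1392 CPM in TCam-2 (log2 fold change 1.03 ± 0.09, edgeR adjusted p = 9.91e-10). KRT8 was at 231 ± 17.8 CPM in 2102 EP and 449 ± 46.5 CPM in TCam-2 (log2 fold change 0.96, shared reads). KRT10 and KRT81 were lower (74.3 and 17.7 CPM; 1.68 and 0.387 CPM), which with KRT7 makes 4 higher and 2 lower of 6 tested. Collagens, laminins and integrins gave 25 higher, 6 lower and 13 not called of 44 tested (70.5% called, against 62.6% of all genes). Their median was 0.83. Several basement membrane genes were higher: LAMB1, a laminin chain, was at 61.3 ± 3.38 CPM in 2102 EP and 262 ± 11.6 CPM in TCam-2 (log2 fold change 2.10 ± 0.09, edgeR adjusted p = 6.42e-15). LAMC1, its partner chain, was at 51.9 ± 2.41 CPM in 2102 EP and 309.9 ± 35.1 CPM in TCam-2 (log2 fold change 2.58 ± 0.14, edgeR adjusted p = 1.82e-10). The paired collagen IV genes COL4A1 and COL4A2 were at 12.7 and 60.3 CPM (log2 fold change 2.24) and 36 and 138 CPM (1.94). LAMA4 had the largest difference of the list (0.251 ± 0.341 CPM in 2102 EP and 63.9 ± 3.71 CPM in TCam-2; log2 fold change 7.97 ± 0.29, edgeR adjusted p = 2.1e-16). Of the chains of collagen I, COL1A2 was higher (2.12 ± 0.178 CPM in 2102 EP and 150.4 ± 7.0 CPM in TCam-2; log2 fold change 6.14) and COL1A1 was not called (16.4 ± 2.78 CPM in 2102 EP and 19.3 ± 0.887 CPM in TCam-2), though it passed without replicate 3 of 2102 EP (edgeR adjusted p = 0.0345).

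Among the ligands and receptors of the tyrosine kinase list, IGF1 differed most. IGF1, the insulin-like growth factor that signals through IGF1R, was at 0, 0.236 and 0.256 CPM in 2102 EP, 4 counts in all, and at 880.2, 841 and 906 CPM in TCam-2 (log2 fold change 12.30 ± 0.22, edgeR adjusted p = 5.64e-20); 1 library had shared reads. IGF1R was higher as well (14.8 ± 2.14 CPM in 2102 EP and 26.4 ± 1.49 CPM in TCam-2, log2 fold change 0.83). IGF2 was lower (4.53 ± 1.91 CPM in 2102 EP and 2 counts in TCam-2), with shared reads. Over 38 tested ligands and receptors of the tyrosine kinase list, 13 were higher in TCam-2, 17 lower and 8 not called. The share called was 78.9%, against 62.6% of all genes. EGFR (5.81 ± 0.626 CPM in 2102 EP and 51.4 ± 2.8 CPM in TCam-2; log2 fold change 3.14 ± 0.13, edgeR adjusted p = 3.56e-15) and the neurotrophin receptor NTRK3 (0.442 ± 0.0879 CPM in 2102 EP and 13.4 ± 1.27 CPM in TCam-2; log2 fold change 4.89) were higher in TCam-2. Of the FGF genes of that list, FGFR1, FGFR3 and FGFR4 were lower by 0.75, 0.84 and 0.90 on the log2 scale, and the ligands FGF2 and FGF4 by 1.53 and 1.65, while FGF13 was higher by 0.86 and FGFR2 was not called. KITLG, the ligand of KIT, had 1 count in TCam-2 and 1.55 ± 0.309 CPM in 2102 EP, the opposite side to its receptor. AXL was also lower (18.8 ± 2.07 CPM in 2102 EP and 0.367 ± 0.33 CPM in TCam-2; log2 fold change −5.57 ± 0.40, edgeR adjusted p = 1.07e-10).

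Genes downstream of ERK gave 7 higher, 13 lower and 8 not called of 28 tested (71.4% called, against 62.6% of all genes). Their median was −0.39. CCND1, cyclin D1, was at 216, 218 and 219.6 CPM in 2102 EP and 30, 29.4 and 31.1 CPM in TCam-2 (log2 fold change −2.85 ± 0.08, edgeR adjusted p = 2.16e-18). The ETS factors ETV1 and ETV4, which FGF signals induce, were lower by 3.09 and 2.48 on the log2 scale, ETV5 was not called, and of the feedback inhibitors SPRY4 and DUSP5 were lower and DUSP4 was higher (5.36 and 20.4 CPM, log2 fold change 1.92). EGR1 and IER3, immediate early genes, were higher (49.1 and 149 CPM; 105 and 317 CPM). WNT genes gave 17 higher, 13 lower and 7 not called of 37 tested (81.1% called, against 62.6% of all genes). The ligands differed in direction. WNT3 was lower in TCam-2, at 35.5 ± 4.5 CPM in 2102 EP and 0.307 ± 0.0663 CPM in TCam-2 (log2 fold change −6.79 ± 0.34, edgeR adjusted p = 5.37e-14). WNT5B was lower too, with 36.7 and 2.05 CPM (log2 fold change −4.16). WNT6 was higher, at 0.287 ± 0.203 CPM in 2102 EP and 23.5 ± 2.48 CPM in TCam-2 (log2 fold change 6.32 ± 0.32, edgeR adjusted p = 6.66e-14). WLS, which WNT proteins need for secretion, was higher, at 2.64 ± 0.361 CPM in 2102 EP and 82.4 ± 6.95 CPM in TCam-2 (log2 fold change 4.96 ± 0.15, edgeR adjusted p = 4.52e-18). AXIN2, a general target of beta-catenin, was level and not called (14.8 and 15.1 CPM), and SP5, another target, was lower (5.03 and 0.457 CPM).

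**Figure D4:**
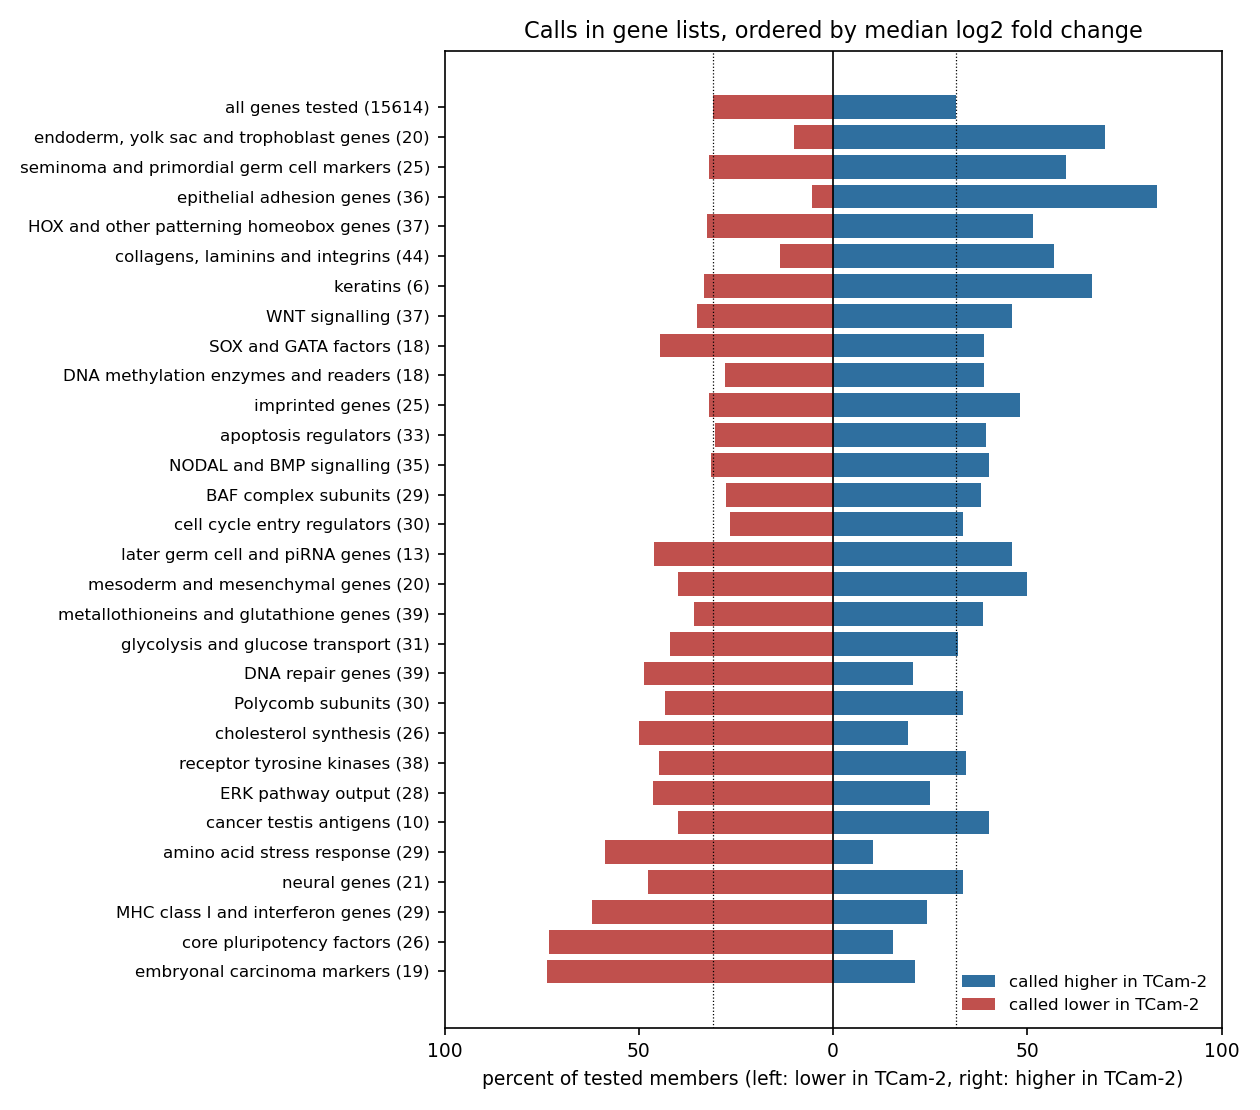
Percent of the tested members of gene lists (number in brackets) called higher in TCam-2 (blue, right) and called lower (red, left), with all tested genes in the top bar and their 31.7% and 30.8% as dotted lines; lists are ordered by median log2 fold change. Bars near the dotted lines on both sides, such as those of cell cycle or BAF genes, are near the background.

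The enzymes that write DNA methylation were lower in TCam-2 where they act de novo. DNMT3B was at 534, 507 and 521 CPM in 2102 EP and 89.8, 90.3 and 82.2 CPM in TCam-2 (log2 fold change −2.57 ± 0.09, edgeR adjusted p = 2.52e-16). Its cofactor DNMT3L was at 59.3, 52.9 and 43.7 CPM and 12.7, 15 and 14.2 CPM (log2 fold change −1.89 ± 0.17, edgeR adjusted p = 2.76e-09). DNMT3A was at 196 ± 11.4 CPM in 2102 EP and 109.7 ± 8.52 CPM in TCam-2 (log2 fold change −0.84). The maintenance pair DNMT1 and UHRF1 was not called (267 and 234 CPM; 17.5 and 14.9 CPM); without replicate 3 of TCam-2, DNMT1 passed as lower (edgeR adjusted p = 0.0256). On the side of demethylation, TET2 was higher (1.97 ± 1.3 CPM in 2102 EP and 30.1 ± 1.17 CPM in TCam-2; log2 fold change 3.95 ± 0.25, edgeR adjusted p = 4.67e-12), and TET3 by a smaller step (log2 fold change 1.14). TET1 was called with a log2 fold change of 0.24 (shared reads), a call lost without replicate 1 or 2 of 2102 EP or replicate 2 of TCam-2 (edgeR adjusted p = 0.0656, 0.109 and 0.105). Over the list, 7 of 18 tested genes were higher, 5 lower and 6 not called (66.7% called, against 62.6% of all genes).

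Polycomb genes, which silence developmental regulators, differed in both directions. EZH2, the methyltransferase of PRC2, was at 93.5, 99.9 and 103 CPM in 2102 EP and 44.6, 39.6 and 40.9 CPM in TCam-2 (log2 fold change −1.24 ± 0.09, edgeR adjusted p = 8.88e-11). JARID2, which brings PRC2 to chromatin in stem cells, was at 647, 597 and 632 CPM and 114, 112 and 116 CPM (log2 fold change −2.45 ± 0.07, edgeR adjusted p = 6.64e-18). SUZ12, RBBP4, RBBP7, MTF2, AEBP2 and EZH1 of the same complex were also lower, with log2 fold changes from −1.34 to −0.51, while EED was not called (edgeR adjusted p = 0.0492 without replicate 3 of 2102 EP). PHF19 of PRC2 was called higher (log2 fold change 0.31), which was lost by DESeq2 (adjusted p = 0.0528), without the low-count filter (edgeR adjusted p = 0.0714) and without any 1 of 5 libraries, with adjusted p up to 0.15 without replicate 1 of 2102 EP. Of the PRC1 genes, BMI1, PCGF5, PHC2, CBX7, RNF2 and RING1 were higher, with BMI1 at 7.79 ± 1.49 CPM in 2102 EP and 25.7 ± 2.26 CPM in TCam-2 (log2 fold change 1.72, shared reads), while CBX2, CBX6, PCGF2 and PHC1 were lower. Over 30 tested genes, 10 were higher, 13 lower and 7 not called (76.7% called, against 62.6% of all genes).

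BAF genes, the subunits of the SWI/SNF remodellers to which BRD9 belongs, gave 11 higher, 8 lower and 10 not called of 29 tested, a share of 65.5% against the background of 62.6%. BRD9, the target of the inhibitor used elsewhere in the series, was at 109, 100.2 and 123 CPM in 2102 EP and 138, 142 and 145 CPM in TCam-2. The difference was small, with all TCam-2 libraries above those of 2102 EP (log2 fold change 0.35 ± 0.09, edgeR adjusted p = 0.00228). SS18 and SMARCA4, partners of BRD9, were higher by 0.49 and 0.37 on the log2 scale, and BRD7, ARID2 and PBRM1 were not called. The alternative subunits showed wider gaps. DPF1, a subunit of neurons, was at 86.6 ± 9.76 CPM in 2102 EP and 9.02 ± 1.55 CPM in TCam-2 (log2 fold change −3.27 ± 0.15, edgeR adjusted p = 8.65e-15). DPF3 was at 0.854 ± 0.528 CPM in 2102 EP and 8.58 ± 1.28 CPM in TCam-2 (log2 fold change 3.32 ± 0.34, edgeR adjusted p = 1.31e-08). BCL11B was at 9.82 ± 1.01 CPM in 2102 EP and 105 ± 1.3 CPM in TCam-2 (log2 fold change 3.42 ± 0.12, edgeR adjusted p = 2.2e-16). Its paralog BCL11A, with shared reads, was lower, at 59.7 ± 2.76 CPM in 2102 EP and 15 ± 2.02 CPM in TCam-2 (log2 fold change −1.99).

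Imprinted genes, which are read from the maternal or the paternal copy only, differed by domain. In the DLK1 and MEG3 domain of chromosome 14, the maternal RNAs were at or near 0 in TCam-2. MEG3 (chromosome 14, start 100779410, end 100861031, GENCODE 29 on GRCh38) was at 221, 215 and 264 CPM in 2102 EP with no count in TCam-2 (at least 2020-fold lower). MEG8, with shared reads, was at 138, 127 and 148 CPM with 2 counts, and MEG9 was at 14.3, 12.7 and 15 CPM with 1 count. The neighbouring paternal gene DLK1 was lower but present (7.74 ± 1.27 CPM in 2102 EP and 1.55 ± 0.509 CPM in TCam-2; log2 fold change −2.32 ± 0.34, edgeR adjusted p = 2.93e-06), and RTL1 was too low to test. In the H19 and IGF2 domain of chromosome 11, H19 (start 1995176, end 2001470) was at 30.5, 37 and 35.4 CPM in 2102 EP and 732, 825 and 845 CPM in TCam-2 (log2 fold change 4.54 ± 0.11, edgeR adjusted p = 1.57e-19), and IGF2 was the reverse. In the adjoining KCNQ1 domain, the antisense RNA KCNQ1OT1 was higher (9.93 ± 1.26 CPM in 2102 EP and 27.7 ± 2.69 CPM in TCam-2, log2 fold change 1.48). CDKN1C and PHLDA2, growth-limiting genes of the same domain, were lower (31.6 ± 1.16 CPM in 2102 EP and 11.3 ± 2.14 CPM in TCam-2, log2 fold change −1.49; 124 ± 8.45 CPM in 2102 EP and 14.1 ± 0.868 CPM in TCam-2, −3.14). On chromosome 15, SNRPN and SNURF were lower (565 and 117 CPM for SNRPN, log2 fold change −2.27, shared reads), while MKRN3 nearby was higher (2.84). Over the list, 12 of 25 tested genes were higher, 8 lower and 5 not called (80% called, against 62.6% of all genes). Allele of origin cannot be read from these counts.

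Genes of antigen presentation were mostly lower in TCam-2. B2M, the light chain without which MHC class I does not reach the surface, was at 96.8, 103 and 103 CPM in 2102 EP and 8.26, 7.43 and 6.37 CPM in TCam-2 (log2 fold change −3.77 ± 0.12, edgeR adjusted p = 8.91e-18). The peptide pump subunit TAP1 was at 3.92 ± 0.55 CPM in 2102 EP and 0.439 ± 0.383 CPM in TCam-2 (log2 fold change −3.16 ± 0.50, edgeR adjusted p = 8.84e-06), with TAP2 and TAPBP also lower. Of the heavy chains, HLA-C was lower (147 ± 10.5 CPM in 2102 EP and 27.9 ± 1.39 CPM in TCam-2; log2 fold change −2.39) and HLA-B higher (17.4 ± 4.41 CPM in 2102 EP and 66.6 ± 9.77 CPM in TCam-2; log2 fold change 1.93); HLA-B and HLA-C had shared reads. Interferon-induced genes gave the largest differences of the list. IFITM2 was at 143, 145 and 149 CPM in 2102 EP and 0.708, 0.743 and 0.122 CPM in TCam-2 (log2 fold change −8.05 ± 0.29, edgeR adjusted p = 3.76e-12). It had shared reads in 3 libraries. BST2 (tetherin) was at 20.7, 22.2 and 23.1 CPM with 2 counts in TCam-2. ISG15 was at 17.7, 16 and 15.7 CPM and 0.472, 0.425 and 0.245 CPM (log2 fold change −5.38 ± 0.30, edgeR adjusted p = 3.88e-13). Against that, MX1 and STAT2 were higher (2.29 and 1.34 on the log2 scale). Of 29 tested genes of this list (13 more were too low), 18 were lower in TCam-2, 7 higher and 4 not called. The share called was 86.2%, against 62.6% of all genes, and the median was −1.05.

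Of 33 tested apoptosis genes, 13 were higher in TCam-2, 10 lower and 10 not called (69.7% called, against 62.6% of all genes). CASP8, the initiator caspase of death receptors, was at 8.92, 8.49 and 9.08 CPM in 2102 EP and 69.5, 83.6 and 96.1 CPM in TCam-2 (log2 fold change 3.23 ± 0.15, edgeR adjusted p = 1.69e-14). CASP10 was at 3.0 ± 0.227 CPM in 2102 EP and 12.7 ± 2.42 CPM in TCam-2 (log2 fold change 2.08 ± 0.27, edgeR adjusted p = 4.37e-07). The TRAIL receptors TNFRSF10A and TNFRSF10B were higher, at 4.5 and 15.7 CPM and 5.76 and 20.9 CPM. CFLAR (FLIP), which restrains CASP8, was higher too (64.5 ± 3.48 CPM in 2102 EP and 177 ± 12.4 CPM in TCam-2; log2 fold change 1.45, shared reads). On the mitochondrial side BAX, BAK1, BBC3 and BIK were lower, among them BIK with 7.97 ± 2.14 CPM in 2102 EP and 0.53 ± 0.249 CPM in TCam-2 (log2 fold change −3.86 ± 0.36, edgeR adjusted p = 3.02e-09), BID was higher (5.19 and 21.2 CPM, log2 fold change 2.02) and MCL1 was not called. Outside that list, PHLDA3, an inhibitor of AKT, was at 47.2 ± 5.45 CPM in 2102 EP and 424 ± 19 CPM in TCam-2 (log2 fold change 3.17 ± 0.11, edgeR adjusted p = 7.44e-17). GDF15, a stress cytokine, was at 77.8 ± 8.62 CPM in 2102 EP and 8.32 ± 0.608 CPM in TCam-2 (log2 fold change −3.23 ± 0.14, edgeR adjusted p = 2.97e-15). CDKN1A (p21) was lower (22.6 ± 4.05 CPM in 2102 EP and 12.1 ± 0.82 CPM in TCam-2; log2 fold change −0.89).

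The D cyclins differed in opposite directions. CCND2, cyclin D2, was at 200.1, 191 and 184 CPM in 2102 EP and 675, 706 and 779.5 CPM in TCam-2 (log2 fold change 1.91 ± 0.08, edgeR adjusted p = 7.71e-15, shared reads), while CCND1 was lower in TCam-2 as given above and CCND3 differed little (30.4 and 40.2 CPM). CDK6, a kinase partner of the D cyclins, was lower (93.4 ± 11.7 CPM in 2102 EP and 14.2 ± 1.79 CPM in TCam-2; log2 fold change −2.71 ± 0.12, edgeR adjusted p = 1.34e-14), and CDK4 by a small step (242 and 204 CPM). Over 30 tested regulators of cell cycle entry, 10 were higher and 8 lower, a share of 60.0% called against 62.6% of all genes. DNA repair genes gave 19 lower, 8 higher and 12 not called of 39 tested (69.2% called, against 62.6% of all genes). Their median was −0.24. The 8 higher became 4 without replicate 1 of 2102 EP or replicate 2 of TCam-2, and 5 without replicate 2 of 2102 EP. CHEK2, a checkpoint kinase, was the lowest in ratio (17.5 ± 2.81 CPM in 2102 EP and 4.15 ± 1.34 CPM in TCam-2; log2 fold change −2.08 ± 0.28, edgeR adjusted p = 1.96e-06), and MSH6, a mismatch repair gene, and BRCA1 were lower by 1.16 and 1.06 on the log2 scale. MGMT, which removes alkyl groups from guanine and does so in a single step, was the main exception, at 10.9, 11.6 and 11.8 CPM in 2102 EP and 53.9, 48.6 and 49.7 CPM in TCam-2 (log2 fold change 2.15 ± 0.15, edgeR adjusted p = 1.5e-11).

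Redox and metal genes included several of the larger metabolic differences. MGST1, a membrane glutathione transferase, was at 266, 256 and 238 CPM in 2102 EP and 8.5, 9.02 and 7.22 CPM in TCam-2 (log2 fold change −4.93 ± 0.14, edgeR adjusted p = 1.82e-17). GSR, glutathione reductase, was at 86 ± 9.39 CPM in 2102 EP and 10.8 ± 0.649 CPM in TCam-2 (log2 fold change −3.0 ± 0.13, edgeR adjusted p = 3.88e-15). GPX2, a peroxidase of epithelia, was at 1.9 ± 0.649 CPM in 2102 EP and 68.7 ± 1.36 CPM in TCam-2 (log2 fold change 5.18 ± 0.20, edgeR adjusted p = 8.66e-16). Of the metallothioneins, small metal-binding proteins, MT1F, MT2A, MT1A, MT1G, MT1H and MT1M were higher. MT1F was at 169 ± 7.42 CPM in 2102 EP and 598 ± 19.1 CPM in TCam-2 (log2 fold change 1.82). MT1E and MT1X were not called, but on the 6 DMSO libraries alone both passed as lower (edgeR adjusted p = 0.000179 and 0.0316), as did MT1X without replicate 3 of 2102 EP (0.0495); the family is near-identical and most members shared reads. Over 39 tested genes of that list, 15 were higher, 14 lower and 10 not called (74.4% called, against 62.6% of all genes). In glycolysis, ENO1 was lower and ENO2, the neuronal enolase, higher (3721 and 1519 CPM, log2 fold change −1.29; 100.1 and 590.0 CPM, 2.56; both with shared reads), and GAPDH was not called. Amino acid stress genes gave 17 lower, 3 higher and 9 not called of 29 tested (69% called, against 62.6% of all genes). Their median was −0.44. The transporter SLC1A5 was lower, at 159 ± 20.9 CPM in 2102 EP and 40.4 ± 3.51 CPM in TCam-2 (log2 fold change −1.97 ± 0.11, edgeR adjusted p = 2.3e-13). SLC7A5 was also lower (log2 fold change −1.20), and ATF4, the factor that drives this response, was not called. Cholesterol synthesis gave 13 lower, 5 higher and 8 not called of 26 tested (3 higher without replicate 2 of either line). That is 69.2% called, against 62.6% of all genes, with a median of −0.33. INSIG1 was lower (50.9 and 15.5 CPM) and FDFT1 higher (129.9 and 365 CPM). The media of the lines differ in their formulation, and the part of the medium in these metabolic differences cannot be told apart from that of the line.

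Among genes with at least a 4-fold difference, the most abundant in TCam-2 besides TFAP2C, IGF1, H19 and ID1 were RAB15 and HIC2. RAB15, a small GTPase of endosomes, was at 72.9, 76.2 and 65.8 CPM in 2102 EP and 733, 735 and 715 CPM in TCam-2 (log2 fold change 3.34 ± 0.08, edgeR adjusted p = 1.97e-19). HIC2, a transcriptional repressor, was at 164 and 786 CPM (log2 fold change 2.26, shared reads). The most abundant in 2102 EP besides LIN28A and JARID2 were FSCN1, ESRG, TUBB2B and MT-TN. FSCN1, the actin bundler fascin, was at 1188, 1176 and 1157 CPM in 2102 EP and 165, 166 and 166 CPM in TCam-2 (log2 fold change −2.83 ± 0.08, edgeR adjusted p = 1.61e-18). ESRG, a non-coding RNA of stem cells, was at 933 and 124 CPM (log2 fold change −2.91). TUBB2B, a tubulin of neurons, was at 782 and 60.9 CPM (−3.68). The mitochondrial tRNA gene MT-TN was at 1330.5, 1235 and 1562 CPM in 2102 EP and 58.2, 58.9 and 54.4 CPM in TCam-2 (log2 fold change −4.59 ± 0.11, edgeR adjusted p = 1.97e-19). The kit counts polyadenylated ends and the strand setting is not given. Whether the MT-TN counts come from the tRNA itself was not tested. ESRG and TUBB2B had shared reads in all 6 libraries.

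The line difference was not spread evenly over the genome. Ordered by position (GENCODE 29 on GRCh38), the tested protein-coding genes of chromosome 8 had a median log2 fold change of 0.77, with 300 of 455 called higher in TCam-2 and 53 lower. Chromosome 22 had the lowest median, −0.62, with 61 higher and 179 lower of 299. Chromosomes X (−0.46), 17 (−0.44) and 21 (0.44) also stood off, and the medians of the other chromosomes lay between −0.15 and 0.28. Chromosomes 8, 17, 22 and X were also cut into 4 equal stretches by gene order, a division chosen after the values were seen. The first stretch of chromosome 8 had 94 genes higher and 6 lower of 114 (median 1.52). The first stretch of chromosome 17 had 14 higher and 143 lower of 197 (median −1.12), while its last stretch had 98 higher and 32 lower of 197 (median 0.32). DNA copy number was not measured in these samples, and the part of gene dosage in these differences was not tested.

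Runs of at least 6 neighbouring tested protein-coding genes, all called in the same direction, numbered 158 (82 higher in TCam-2 and 76 lower) and held 1290 of 13089 genes; without the low-count filter they numbered 81. The longest, on chromosome 8 at chr8:10764963-20226819, held 29 genes from PINX1 to ATP6V1B2, all higher in TCam-2 with log2 fold changes from 0.76 to 7.51 and a median of 1.96; 27 passed 2-fold. It includes GATA4 and FDFT1 of cholesterol synthesis. The protease gene CTSB was at 31.4 ± 2.45 CPM in 2102 EP and 116 ± 5.17 CPM in TCam-2 (log2 fold change 1.89 ± 0.09, edgeR adjusted p = 4.15e-14). DLC1, a RhoGAP, was at 4.8, 3.89 and 3.84 CPM in 2102 EP and 147, 140.4 and 149 CPM in TCam-2 (log2 fold change 5.11 ± 0.14, edgeR adjusted p = 1.28e-18). A run of 24 higher genes follows at chr8:22089159-23575463 (median 1.77), which holds all 4 TRAIL receptor genes, TNFRSF10A, TNFRSF10B, TNFRSF10C and TNFRSF10D, side by side. TNFRSF10D, a decoy receptor, was at 1.03, 1.41 and 1.41 CPM in 2102 EP and 18.7, 21.3 and 25.6 CPM in TCam-2 (log2 fold change 4.08 ± 0.22, edgeR adjusted p = 2.19e-13). PDLIM2, an adaptor of the cytoskeleton in the same run, was at 32.5 ± 3.98 CPM in 2102 EP and 447 ± 18.4 CPM in TCam-2 (log2 fold change 3.78 ± 0.10, edgeR adjusted p = 9.7e-19).

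**Figure D5:**
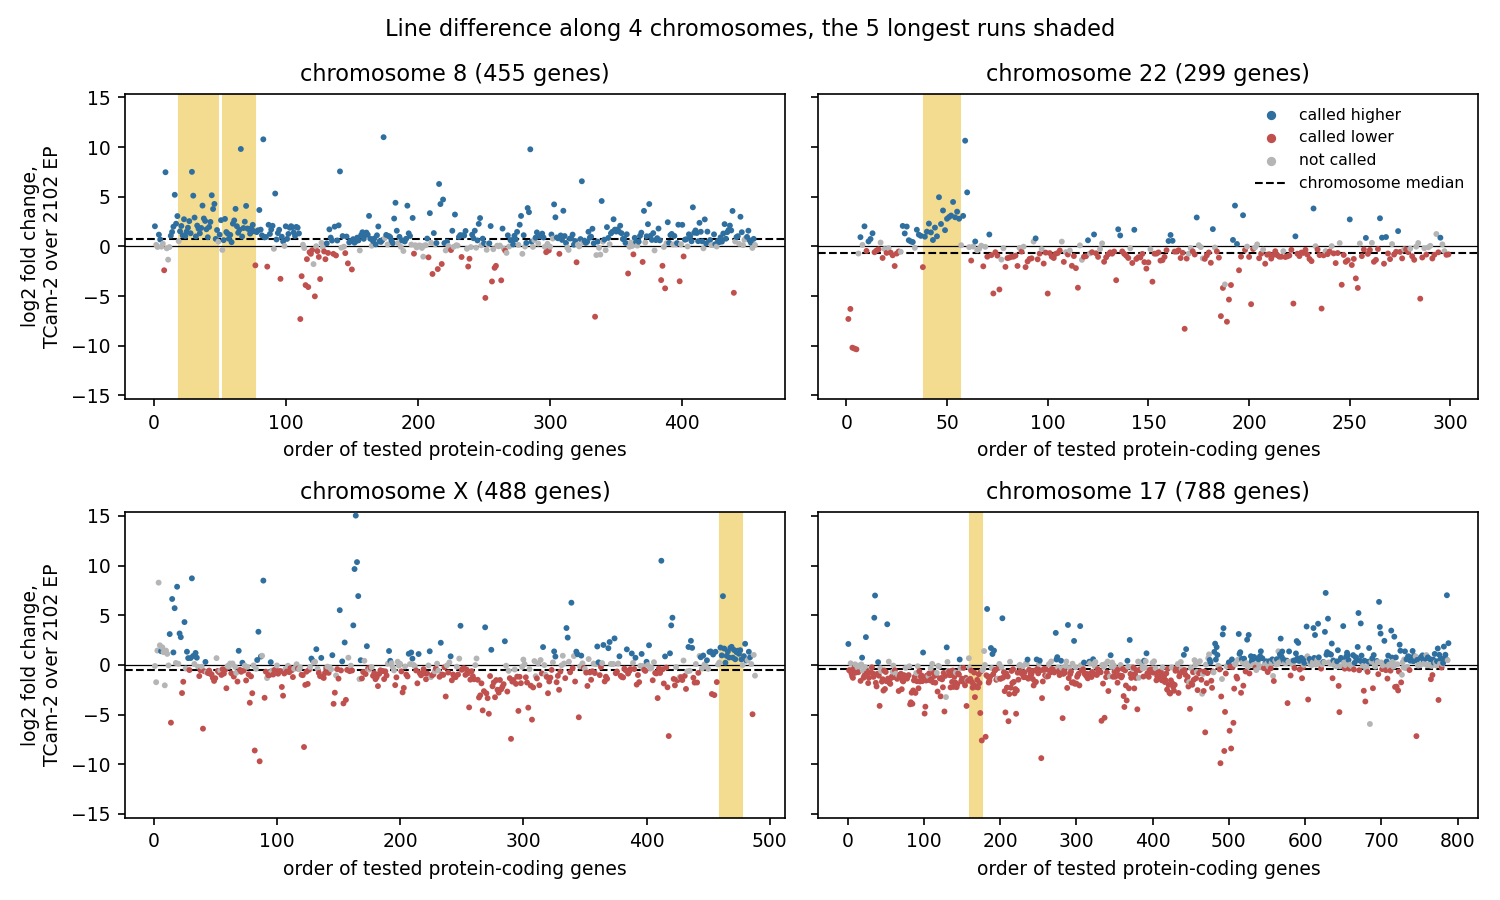
Log2 fold change (TCam-2 over 2102 EP) of the tested protein-coding genes of chromosomes 8, 22, X and 17 in their order along the chromosome, blue called higher, red called lower, grey not called; shaded stretches are the 5 longest runs and dashed lines the chromosome medians (0.77, −0.62, −0.46 and −0.44). On chromosome 8 most points lie above 0, and on chromosome 22 a shaded run of higher genes stands out from a chromosome on which most points lie below 0.

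On chromosome 22 a run of 18 higher genes at chr22:20441519-21982816 had a median of 2.54, while the chromosome was lower as a whole. It lies in the first of the 4 stretches by gene order, which leaned higher (37 higher and 24 lower of 75, median 0.39). The later stretches had medians of −0.93, −0.74 and −0.64. PPM1F, a phosphatase gene of the run, was at 19.2, 15.1 and 15.3 CPM in 2102 EP and 193, 196 and 175 CPM in TCam-2 (log2 fold change 3.50 ± 0.11, edgeR adjusted p = 1.05e-17). The run also holds CRKL, an adaptor of receptor kinases (46.2 and 72.2 CPM, log2 fold change 0.64), UBE2L3, a ubiquitin-conjugating enzyme (203 and 632 CPM, 1.64), and HIC2. PRAME lies on the same chromosome (start 22547701, end 22559361) and outside the run. Nearer to the start of the chromosome, the first 5 tested protein-coding genes were all but silent in TCam-2: IL17RA, TMEM121B, HDHD5, ADA2 and CECR2 had 2, 0, 0, 0 and 1 counts over its 3 libraries, against 14.4, 1.11, 16.9, 17.9 and 69.4 CPM in 2102 EP. They lie between 17084954 and 17558149. The next gene along, SLC25A18, was not called (3.42 and 2.08 CPM), and ATP6V1E1 after it was higher in TCam-2 (97.6 and 186 CPM).

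The other long runs were on the X chromosome and on chromosome 17. At chrX:154010500-154565046, 18 genes were higher in TCam-2 (median 1.32) on a chromosome that was lower as a whole. The last of its 4 stretches by gene order, which holds this run, had 48 higher and 45 lower of 122 (median 0.07). FLNA, the actin crosslinker filamin A, was at 569.6, 507 and 624 CPM in 2102 EP and 1804, 1794 and 1733 CPM in TCam-2 (log2 fold change 1.65 ± 0.10, edgeR adjusted p = 2.53e-12). The signalling kinase gene IRAK1 belongs to the same run. At chr17:12992391-16437003, 16 genes were lower (median −1.9). ELAC2, a tRNA-processing nuclease, was at 157 ± 5.34 CPM in 2102 EP and 59.3 ± 3.61 CPM in TCam-2 (log2 fold change −1.40 ± 0.09, edgeR adjusted p = 9.36e-12). NCOR1, a corepressor of nuclear receptors, was at 132 ± 5.08 CPM in 2102 EP and 68.5 ± 7.49 CPM in TCam-2 (log2 fold change −0.94 ± 0.10, edgeR adjusted p = 1.43e-08). CENPV was at 36.8 ± 4.39 CPM in 2102 EP and 1.28 ± 0.278 CPM in TCam-2 (log2 fold change −4.84 ± 0.35, edgeR adjusted p = 1.46e-08).

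The difference between the lines was read once more in the 6 I-BRD9 libraries, which the contrast above does not use. Of the 9767 called genes, 9145 (93.6%) had the same sign there, and 7582 were also called in that direction. With the inhibitor SOX2 averaged 257 CPM in 2102 EP and 6.08 CPM in TCam-2, and SOX17 0 CPM and 45.3 CPM. PRAME averaged 0 CPM and 106 CPM, and TMCO1 147 CPM and 0 CPM, in the same order. IGF1 averaged 0.10 CPM in 2102 EP and 208 CPM in TCam-2, below its 876 CPM with DMSO but still apart from 2102 EP. These libraries carry the treatment, so that they show the line difference in another condition and are no repeat of the first.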

How the data were processed

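Total RNA of 12 cultures was made into 3′ end libraries with a Lexogen kit, per the labels' protocols. Per the submitters' processing notes, which give no order, the authors used Trim Galore, STAR 2.7.11b, Salmon 1.9.0, R 4.2.0 and DESeq2 on GRCh38. The deposited table holds the authors' estimated counts per gene, not normalized; the sources used here do not give the annotation release or the strand setting. Reads matching several genes were divided among them, so a gene with a fractional count (more than 0.01 from a whole number) in any DMSO library is described as having shared reads: 3750 of the tested genes.

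After rounding to integers the counts went into edgeR 4.0.16 (R 4.3.3; TMM scaling, filterByExpr by group, quasi-likelihood fit of 4 group means over all 12 libraries, contrast TCam-2 with DMSO minus 2102 EP with DMSO, Benjamini-Hochberg adjustment over 15614 genes, threshold 0.05). The model was also run on simulated data with 200 changed genes and a spread common to all genes. The real data had 9767 called genes, so that run does not test scaling or error control for them. The libraries' totals of 7924567 to 9837567 counts set the precision; 3 counts over a line's 3 libraries were the floor for fold bounds, and 95% intervals of ratios are Poisson and cover counting error only. Coordinates are those of GENCODE 29 on GRCh38, matched by identifier for 58228 of 63241 genes (92.1%), and promoter sequences those of RefSeq on GRCh38.p14.

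Genes named are BRD9, 16 key markers, the 12 largest differences per direction at 10 CPM or more, the 6 most abundant per direction with at least a 4-fold difference, up to 4 members per direction of each of 32 lists (every member of lists with under 12 tested genes), and the members of the 5 longest runs; 137 more, not all of them printed, were followed after their values were seen. A few of these genes are left out of the text. The members and lists were chosen with earlier results of these data known. The alternatives tried were upper-quartile and DESeq2 scaling, DESeq2 1.42.0, limma 3.58.1 voom, other low-count filters, the 6 DMSO libraries alone, blocks by replicate number and by library code, removal of genes with shared reads, a test against a 2-fold threshold and leaving out each library.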

Additional observations from a re-analysis of the deposited data

How the results depend on the processing

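Across 15 refits, genes called higher in TCam-2 numbered from 4621 (without replicate 2 of 2102 EP) to 5160 (no low-count filter). Those called lower numbered from 4549 to 5260 under the same settings. Leaving out each library gave 4621 to 4709 higher and 4549 to 4636 lower. Removing genes with shared reads from the main fit left 3817 higher and 3785 lower. Of 492 named genes followed, 459 kept their direction and their side of the threshold in every setting that gave a value, 33 changed side in at least 1, and none changed direction. The median log2 fold change of all genes was 0.0165 in the main fit, 0.003 with upper-quartile scaling and −0.004 with DESeq2 factors. Without the low-count filter, 7 cancer testis antigens, 4 epithelial adhesion genes, 4 testis somatic markers and 1 stromal or blood marker were called lower, 2 stromal or blood markers were called higher, and runs of at least 6 genes numbered 81, with more genes tested between called ones. With at least 1 CPM in 3 libraries, 2 testis somatic markers were lower. Tested against a 2-fold threshold, 1662 genes were lower and 1830 higher. Fitted on the 6 DMSO libraries alone, 93.1% of called genes had the same sign with I-BRD9. Runs of at least 4 genes numbered 439.

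Leaving out each library gave 93.6% to 94.4% with the same sign with I-BRD9, 4 to 7 higher DNA repair genes, 3 to 5 higher cholesterol genes, 0 to 1 higher stromal or blood markers, 2 to 3 lower testis somatic markers and 112 to 130 runs. In the 5 longest runs, HR, BMP1, NUDT18, FAM86B2, C8orf48, SLC39A14, EMD, HS3ST3A1 and TVP23C-CDRT4 lost their call in at least 1 setting. The cause of these changes was not tested.

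The labels do not say what a shared replicate number stands for. Deviations from the group means correlated at 0.158, −0.00519 and 0.0285 for numbers 1, 2 and 3, and replicates 2 and 3 of TCam-2 correlated best with another number, whereas the second principal component of the 6 libraries (4.94% of their variance) placed libraries of the same number together (32.2 and 30.0, −9.47 and −6.96, −22.8 and −23.0; 2102 EP first). With the replicate number as a block, 4853 genes were higher and 4745 lower, and with the set of library codes as the block 4879 and 4764; TCL1B and TVP23C-CDRT4 lost their call under both, and TERT passed as lower with the codes (edgeR adjusted p = 0.0445).

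Depth limits what is read as absent: 3 counts correspond to 0.318 to 0.384 CPM in a library, and a gene without counts in a line may be present below 0.12 CPM.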
